A study of Rattus norvegicus with 3 samples.

Results

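Glycolysis and glycogen metabolism were described in rat soleus through 30 genes named by symbol, covering glucose uptake, the glycolytic enzymes, lactate dehydrogenase, and glycogen synthesis and breakdown. Each gene was represented by the brightest probe set that carried its symbol alone, by the mean over the arrays, and all 30 of 30 were measured, out of 14506 genes with such a probe set. All 30 also lay above the brightness limit (5.72, log2) on every array, so they are among the 10154 genes that were compared. The soleus is a postural hind limb muscle made mostly of slow fibres. It was taken from rats of 7 weeks and a strain labelled Brown, in 3 groups of 6 rats. All groups were irradiated continuously over 2 weeks to 50 mSv. Group Ct received nothing else. In group DN the irradiation was combined with denervation, and in group TS with tail suspension, which takes the load off the hind limbs. For each group the RNA of its 6 rats was combined into a pool and read on 1 Affymetrix Rat Gene 1.0 ST array. There were therefore no replicates and no test between groups, and every difference describes 3 pools. An unirradiated group was not analysed here, and the labels used here do not say how or when the muscle was denervated or for how long the tail was suspended.

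As background, muscle takes up glucose through membrane transporters, traps it as glucose 6-phosphate with hexokinase, and either stores it as glycogen or breaks it down through glycolysis to pyruvate. Pyruvate then enters the mitochondria or is reduced to lactate. Several steps have a muscle form and a widely expressed form of the enzyme, and glycolytic enzymes are generally more abundant in fast than in slow fibres. In a whole muscle, fewer cells of a type and less RNA per cell cannot be told apart.

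The deposited values were taken as log2 values from their range, so a difference of 1 is read as 2-fold and the limit used for calls, 1.5-fold, is 0.58. Over the genes compared, the Ct array had a median of 8.12, the DN array 8.13 and the TS array 8.25. Centring the arrays on these medians would take 0.13 from each TS minus Ct difference and 0.01 from each DN minus Ct difference. Equal values on at least 2 arrays, which the probe summary can return, were found for 3 members, Hk1, Gapdh and Phka1. All 10 listed slow-fibre markers lay above the brightness limit, and so did all 10 measured fast-fibre markers. The slow myosin Myh7 read 13.62, 13.06 and 13.24 in Ct, DN and TS. Of the 10 slow-fibre markers, 6 were at least 1.5-fold lower in DN and 2 in TS (3 with centred arrays). Their summed linear level was 87421 in Ct, 57562 in DN and 69997 in TS. Of 10 measured fast-fibre markers, 7 were at least 1.5-fold higher in DN and 8 in TS, with summed levels of 24385, 42958 and 51720. Over all genes compared, 4.93% were at least 1.5-fold higher and 5.53% lower in DN, and 5.89% higher and 2.68% lower in TS. With centred arrays the shares in TS were 3.52% higher and 3.94% lower. These shares apply to all counts of markers and listed genes below. The part of fibre-type shifts in the differences below was not tested.

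Denervated soleus carried less RNA of genes at several steps of the pathway, and none of the 30 members was at least 1.5-fold higher than in Ct, against 4.93% of all genes compared. At least 1.5-fold lower were 8 of 30 members, against a background of 5.53%: Slc2a4, Pfkfb1, Tpi1, Eno3, Ldhb, Gys1, Ugp2 and Fbp2. At least 2-fold lower were 4 of them, Slc2a4, Pfkfb1, Ldhb and Ugp2, against 2.24%. The median of the members was -0.20, and the median over all genes was 0.00. The deposited values of 42.9% of all genes compared were equal in DN and Ct, and those of 24.7% in TS and Ct, and why was not tested. With equal values left out, 8 of 27 members were at least 1.5-fold lower in DN, against 9.69% of genes, and 0 higher, against 8.64%. Suspended soleus differed in both directions. At least 1.5-fold higher than Ct were 6 of 30 members, Hk2, Pfkfb3, Ldha, Phkg1, Gpd1 and Fbp2, against 5.89% of all genes, and 2 were lower, Ldhb and Ugp2, against 2.68%. At 2-fold, 2 were higher, Pfkfb3 and Phkg1, against 1.37%, and none was lower, against 0.689%. With centred arrays Phkg1 stood at 0.92, short of 2-fold, while Ldhb (-1.08) and Ugp2 (-1.05) were more than 2-fold lower. Phkg1 was also short of 2-fold with arrays detrended (0.96) or quantile-normalized (0.98). With equal values left out, 6 of 27 members were at least 1.5-fold higher in TS, against 7.82% of genes, and 2 lower, against 3.56%. The member median for TS minus Ct was 0.03 beside 0.02 over all genes, and it turned to -0.10 when arrays were centred, as the median over all genes turned to -0.12. The number higher and lower under centring was 5 and 3 in place of 6 and 2, because Ldha dropped under the limit and Gbe1 passed it. The shares over all genes with centred arrays were 3.52% higher and 3.94% lower. Both comparisons use the same Ct array.

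**Figure D1:**
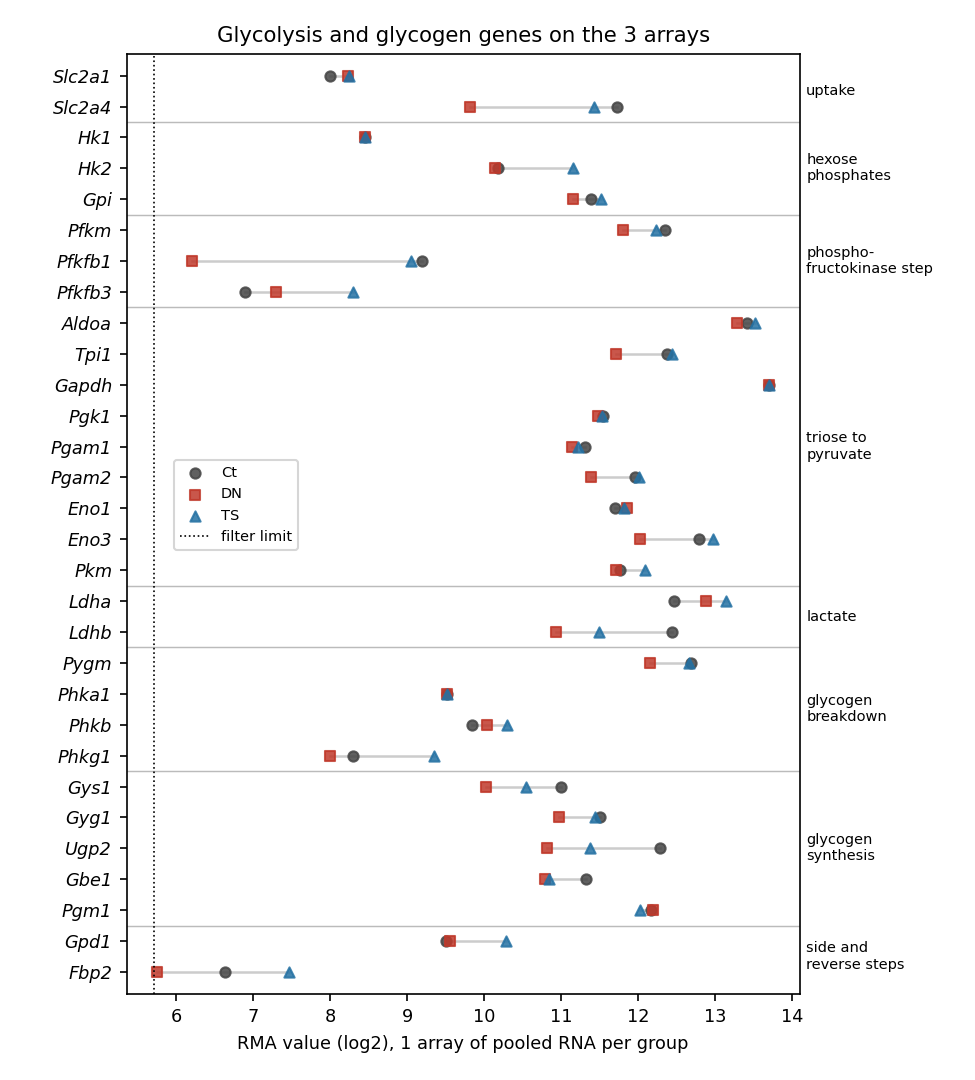
RMA values (log2) of the 30 members on the Ct, DN and TS arrays, ordered by step, with the brightness limit as a dotted line at 5.72; a grey bar spans the 3 values of a gene, and there is 1 array per group, so no error bars. Slc2a4, Pfkfb1 and Ldhb have their DN point far to the left, and Hk2, Pfkfb3 and Phkg1 their TS point to the right.

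At the membrane, the 2 transporters differed. Slc2a4 encodes GLUT4, the transporter that insulin and contraction bring to the surface of muscle fibres. It read 11.73 in Ct, 9.82 in DN and 11.42 in TS. DN was the low pool, at -1.92 from Ct, a 3.77-fold difference that ranked 42 from the lowest of 10154 genes, while TS stood at -0.31, short of 1.5-fold. Slc2a1 encodes GLUT1, the widely expressed basal transporter, and read 8.0 in Ct, 8.23 in DN and 8.25 in TS, with differences of 0.23 and 0.25 from Ct. The log2 ratio of Slc2a4 to Slc2a1 thus differed from Ct by -2.15 in DN and by -0.56 in TS. Adipocytes also carry GLUT4, and their markers were read beside it. All 9 listed adipocyte markers lay above the brightness limit, with 5 at least 1.5-fold higher in DN and 5 in TS, none lower, and summed levels of 4313, 6808 and 5352 in Ct, DN and TS. Their part in the Slc2a4 values was not tested.

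Among enzymes of the hexose phosphates, the suspended pool stood out through Hk2. Hk2 encodes hexokinase II, the insulin-responsive form of muscle, and read 10.17 in Ct, 10.14 in DN and 11.15 in TS. Only the TS value was high, 0.98 (1.97-fold) above Ct and at rank 148 from the highest, while DN stood at -0.03. Hk1, the widely expressed hexokinase, was returned as 8.45 on all 3 arrays, which does not show that it did not differ. Gpi, which turns glucose 6-phosphate into fructose 6-phosphate, read 11.39, 11.16 and 11.51 in Ct, DN and TS. It was under 1.5-fold in both comparisons, and its TS minus Ct difference of 0.12 turned to -0.01 with centred arrays.

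The phosphofructokinase step, the main control point of glycolysis, held the largest single difference of the members. Pfkfb1 encodes a bifunctional enzyme of liver and muscle that makes and removes fructose 2,6-bisphosphate, the activator of phosphofructokinase. It read 9.19 in Ct, 6.21 in DN and 9.05 in TS. DN was low, with a difference of -2.98 from Ct (7.90-fold) at rank 13 from the lowest of 10154 genes, and of -2.83 from TS at rank 7. DN lay near the brightness limit of 5.72, where the size of a difference is less certain. With 32 added to every value on the linear scale, which shrinks differences of dim genes, the DN minus Ct difference was -2.54. Pfkfb3, a form with high kinase activity, moved in the other direction and in the other pool. It read 6.90 in Ct, 7.30 in DN and 8.30 in TS, so TS was the high value, 1.40 (2.63-fold) above Ct at rank 50 from the highest, and DN was 0.40 above, short of 1.5-fold. The TS minus Ct difference of Pfkfb3 was 1.19 with 32 added on the linear scale and 1.26 with centred arrays. Macrophages and endothelial cells also express Pfkfb3. Of 7 macrophage markers, all above the brightness limit, 4 were at least 1.5-fold higher in TS and none in DN, with summed levels of 3658 in Ct, 4282 in DN and 5578 in TS. The count in TS was 2 with centred arrays and 3 under each of the other scalings. Of 6 measured endothelial markers none was higher in either pool, and 2 were lower in DN and 1 in TS, with summed levels of 5181, 3780 and 4394. Their part in the Pfkfb3 difference was not tested. The log2 ratio of Pfkfb3 to Pfkfb1 was higher than in Ct by 3.38 in DN, mainly through Pfkfb1, and by 1.54 in TS, mainly through Pfkfb3. Pfkm, the muscle form of phosphofructokinase itself, read 12.34, 11.80 and 12.23 in Ct, DN and TS. Its DN minus Ct difference was -0.54, just short of 1.5-fold.

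The starts of the Pfkfb1 and Pfkfb3 genes are shown because these enzymes of a single step moved apart, in a choice made after their values were seen. The 250 bases upstream of the gene start are from RefSeq on GRCr8, 5′ to 3′ on the strand of the gene, with other starts of the genes not covered, at chrX:22941926-22942175 (plus strand) for Pfkfb1 and chr17:71944683-71944932 (plus strand) for Pfkfb3. Capitals mark matches to CANNTG, the E-box pattern bound by myogenic and other helix-loop-helix factors, to ACGTG, the core that hypoxia-inducible factors bind, and to the MEF2 motif, each on both strands.
Pfkfb1: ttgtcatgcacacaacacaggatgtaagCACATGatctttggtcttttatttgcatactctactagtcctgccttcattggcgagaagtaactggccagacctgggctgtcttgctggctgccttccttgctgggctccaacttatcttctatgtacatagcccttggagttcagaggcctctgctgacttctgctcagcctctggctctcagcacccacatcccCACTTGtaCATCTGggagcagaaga
Pfkfb3: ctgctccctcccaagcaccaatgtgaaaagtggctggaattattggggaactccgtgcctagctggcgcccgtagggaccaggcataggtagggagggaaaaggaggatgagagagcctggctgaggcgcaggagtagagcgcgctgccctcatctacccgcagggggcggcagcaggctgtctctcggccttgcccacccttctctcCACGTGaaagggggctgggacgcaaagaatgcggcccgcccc
The Pfkfb1 window held 3 matches to CANNTG and none to ACGTG, and the Pfkfb3 window held 1 CANNTG match that overlaps 2 ACGTG matches, as CACGTG contains both patterns. Over 26 members with a window, CANNTG was present in 16 (61.5%), against 67.0% of 27456 genes with a window and 58.1% of the 8422 of these that were compared on the arrays. ACGTG was present in 13 of 26 (50.0%), against 18.1% and 23.0%, and the MEF2 motif in 1 (3.85%), against 3.32% and 1.58%. A gene with several windows was counted if any of them held a match. The planned motifs were CANNTG and MEF2, and ACGTG was not among them. The median GC content, from 1 window per gene, was 58.0% in members, 60.0% in compared genes and 52.0% in all genes with a window. These matches describe letters in a window and do not show that a factor binds there.

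From the triose phosphates to pyruvate, differences were smaller, and those past the limit were in the denervated pool. Of 9 members, 2 were at least 1.5-fold lower in DN, against 5.53% of all genes. None differed by as much in TS, where 5.89% of all genes were higher and 2.68% lower. Eno3, the muscle enolase, read 12.79 in Ct, 12.02 in DN and 12.97 in TS, with DN alone low, at -0.77 (1.70-fold). Tpi1, triose phosphate isomerase, read 12.37, 11.71 and 12.44 in the same order, with DN again low, at -0.66 (1.58-fold). Pgam2, the muscle phosphoglycerate mutase, had the same order of pools at 11.95, 11.39 and 12.01, and its difference of -0.57 in DN fell just short of 1.5-fold.

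In DN the widely expressed forms of enolase and phosphoglycerate mutase stood closer to Ct than the muscle forms. Eno1 read 11.70, 11.85 and 11.82 in Ct, DN and TS, so the differences from Ct were 0.15 and 0.12, and its 3 probe sets gave DN minus Ct differences from 0.09 to 0.18. Pgam1 read 11.30, 11.14 and 11.22, with differences of -0.16 in DN and -0.09 in TS. The log2 ratio of Eno3 to Eno1 therefore differed from Ct by -0.92 in DN, a 1.90-fold shift, and that of Pgam2 to Pgam1 by -0.41. In TS the same ratios were 0.06 and 0.15 above Ct.

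Among the remaining enzymes of this stretch, Aldoa, Pgk1 and Pkm stayed under 1.5-fold in both comparisons. Aldoa, the muscle aldolase, read 13.41 in Ct, 13.28 in DN and 13.52 in TS. Pgk1, phosphoglycerate kinase, read 11.54, 11.48 and 11.54. Pkm, pyruvate kinase, read 11.76, 11.71 and 12.09, with TS 0.33 above Ct, still under 1.5-fold, and its 3 probe sets gave 0.28 to 0.33. Gapdh was returned as 13.70 on all 3 arrays, which does not show that it did not differ. Its 16 probe sets, which may share signal with the many processed copies of this gene, ran from 13.41 to 13.70 in Ct and differed by -0.02 to 0.00 in DN and by -0.11 to 0.02 in TS. The highest value of the Ct array was 13.99, and 2 members in Ct, 2 in DN and 3 in TS lay within 1 of their array's highest value, where differences can be compressed. Small positive TS minus Ct differences of Aldoa, Tpi1, Pgam2 and Eno1, from 0.06 to 0.12, turned negative with centred arrays.

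**Figure D2:**
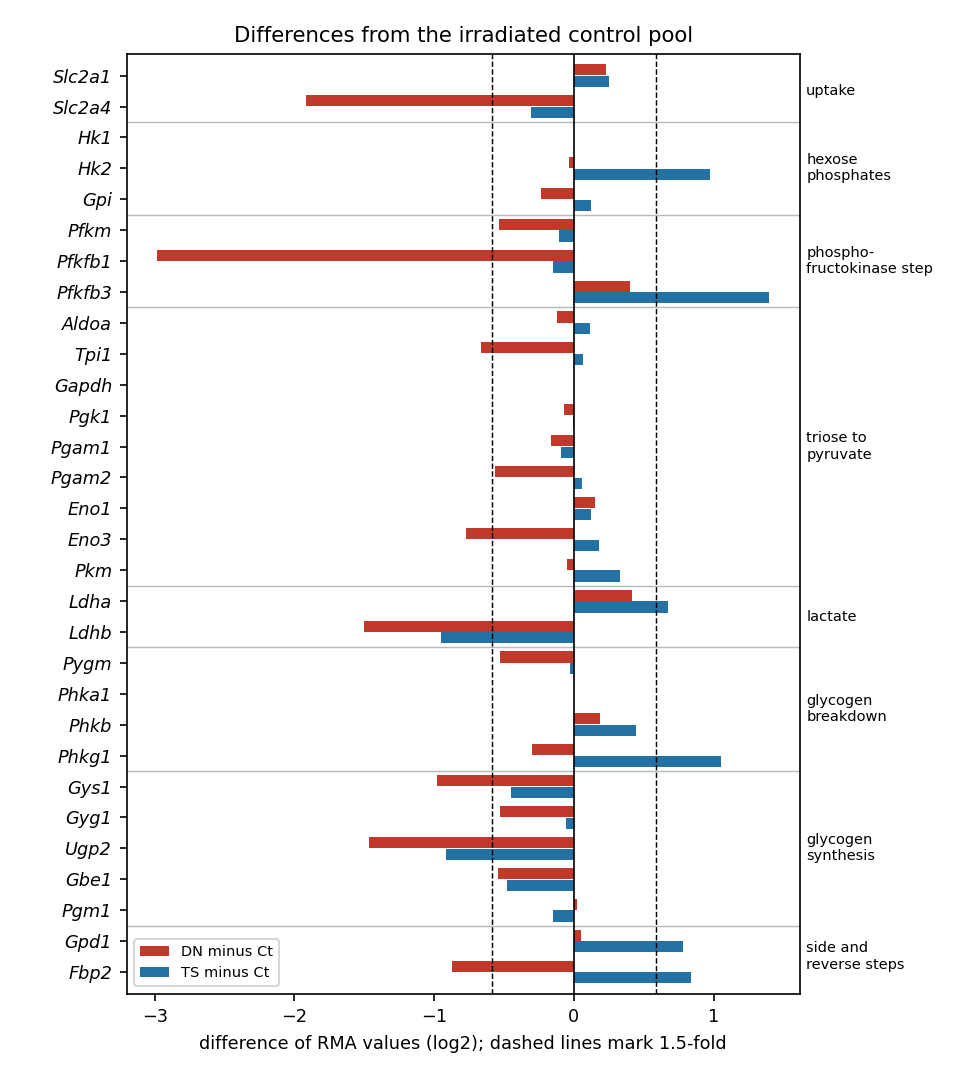
Differences of RMA values (log2) from Ct for the 30 members, DN in red and TS in blue, ordered by step, with dashed lines at 1.5-fold (0.58 either way); each bar is 1 pool minus 1 pool, without error. In DN 8 bars pass the lower line and none the upper; in TS 6 pass the upper line and 2 the lower.

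At the lactate step the 2 subunit genes went opposite ways in both pools. Ldhb encodes the heart-type subunit of lactate dehydrogenase, common in oxidative muscle. It read 12.44 in Ct, 10.94 in DN and 11.49 in TS, so both treated pools were low, DN at -1.5 (2.84-fold) and TS at -0.95 (1.93-fold). These differences ranked 83 and 78 from the lowest of 10154 genes. Ldha encodes the muscle-type subunit, common in glycolytic fibres, and read 12.47 in Ct, 12.88 in DN and 13.14 in TS. Both treated pools were high, TS by 0.67 (1.60-fold, under the limit with centred arrays) and DN by 0.42, short of the limit. A second, dimmer Ldha probe set read 11.16, 11.66 and 12.51, with 0.51 in DN and 1.35 in TS, so the direction was shared and the size in TS was not. The log2 ratio of Ldha to Ldhb was 1.92 above Ct in DN and 1.62 above it in TS, shifts of 3.79-fold and 3.08-fold.

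The same upstream windows of both lactate dehydrogenase genes are shown because this pair moved apart in both pools. They lie at chr1:106507842-106508091 (plus strand) for Ldha and at chr4:177177409-177177658 (minus strand) for Ldhb on GRCr8, from RefSeq, with capitals as above.
Ldha: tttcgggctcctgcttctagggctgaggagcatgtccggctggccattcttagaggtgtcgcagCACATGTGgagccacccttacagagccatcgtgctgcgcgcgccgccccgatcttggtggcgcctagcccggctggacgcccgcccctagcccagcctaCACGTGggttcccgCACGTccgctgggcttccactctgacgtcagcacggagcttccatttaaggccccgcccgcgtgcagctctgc
Ldhb: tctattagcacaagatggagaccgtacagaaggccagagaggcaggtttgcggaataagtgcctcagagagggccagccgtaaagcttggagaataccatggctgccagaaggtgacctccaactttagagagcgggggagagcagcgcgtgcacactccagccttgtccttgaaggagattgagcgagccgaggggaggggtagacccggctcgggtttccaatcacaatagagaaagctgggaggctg
The Ldha window held 3 CANNTG matches and 3 ACGTG matches, and a CACGTG in it counts once for the first pattern and on both strands for the second. The Ldhb window held no match to any of these motifs, which says only that these letters are not in these 250 bases.

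Transport of lactate and pyruvate across the plasma membrane is carried out by genes outside the 30, and 4 of them were on a list of other pathway genes. Of the 4, 3 were at least 1.5-fold lower in DN and 1 was higher, against 5.53% and 4.93% of all genes. In TS 2 were lower, against 2.68%, or 1 with 32 added on the linear scale. Slc16a3 encodes MCT4, the lactate exporter of glycolytic muscle, and read 8.91 in Ct, 6.77 in DN and 9.06 in TS. DN was the low pool, at -2.14, and TS was 0.15 above Ct. Slc16a1, which encodes MCT1, the carrier of oxidative fibres, read 11.01, 9.70 and 10.32 and was low in both pools, at -1.31 and -0.70. Slc16a7 stood at -1.35 in DN and -0.59 in TS. Bsg encodes basigin, the partner that carries these transporters to the membrane, and was 0.62 above Ct in DN and 0.03 above it in TS.

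Genes of glycogen breakdown had no member past 1.5-fold in DN and 1 of 4, a higher one, in TS. Over all genes, 4.93% were higher and 5.53% lower in DN, and 5.89% higher and 2.68% lower in TS. Pygm, the muscle glycogen phosphorylase that releases glucose 1-phosphate, read 12.69 in Ct, 12.15 in DN and 12.66 in TS. DN was the low pool, at -0.53 (1.45-fold). Phosphorylase kinase, which activates Pygm, is built of several subunits. Its catalytic subunit Phkg1 read 8.29, 8.0 and 9.35 in Ct, DN and TS, so TS was high by 1.05 (2.07-fold), at rank 117 from the highest, and DN stood at -0.30. The regulatory subunit Phkb read 9.85, 10.03 and 10.29 and stayed under 1.5-fold in both. Phka1, the muscle alpha subunit, was returned as 9.51 on all 3 arrays.

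Of 5 genes of glycogen synthesis, 4 lay under Ct in DN and 5 in TS, and none of the 5 had equal values. Over all genes 24.3% lay under Ct in DN and 22.7% in TS, with equal values counted in the total. With equal values left out, 2467 of 5799 genes lay under Ct in DN and 2308 of 7648 in TS. At least 1.5-fold lower were 2 of the 5 in DN and 1 in TS, against 5.53% and 2.68% of all genes. With centred arrays these were 2 and 2, against 5.57% and 3.94%. The medians of the 5 genes, -0.54 in DN and -0.45 in TS, stayed negative with arrays centred, detrended or quantile-normalized. Ugp2 makes UDP-glucose, the building block of glycogen, and read 12.28 in Ct, 10.82 in DN and 11.37 in TS. Both pools were low, at -1.46 (2.76-fold) and -0.91 (1.88-fold), at ranks 89 and 94 from the lowest. Gys1, the muscle glycogen synthase, read 11.00, 10.02 and 10.55, with DN low at -0.98 (1.97-fold) and TS between the others at -0.45.

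The rest of this group lay under the limit. Gbe1, the branching enzyme, read 11.33 in Ct, 10.78 in DN and 10.85 in TS, so both treated pools were low by similar amounts, at -0.54 and -0.48, and the TS difference passes 1.5-fold with centred arrays. Gyg1, glycogenin, the protein primer of the particle, read 11.50, 10.97 and 11.44, with DN alone low, at -0.53. Pgm1, the phosphoglucomutase that links glycogen to glycolysis in both directions, read 12.17, 12.19 and 12.03, a range of 0.17. Besides the 8 members past 1.5-fold in DN, Pfkm, Pgam2, Pygm, Gyg1 and Gbe1 stood at -0.53 to -0.57.

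Gpd1 and Fbp2 serve side and reverse steps, and both were high in the suspended pool. Gpd1, cytosolic glycerol 3-phosphate dehydrogenase, passes electrons of glycolytic NADH towards the mitochondria and feeds lipid synthesis. It read 9.50 in Ct, 9.55 in DN and 10.29 in TS, with TS high by 0.78 (1.72-fold). Its mitochondrial partner Gpd2, which is not among the 30, read 7.40, 7.46 and 8.27, also with TS alone high, by 0.87. Adipocytes express Gpd1 too, and of their 9 markers 5 were at least 1.5-fold higher in each treated pool, as given above, with Fabp4 at -0.02 in DN and -0.43 in TS. Their part in the Gpd1 values was not tested. Fbp2, the muscle fructose 1,6-bisphosphatase, read 6.63 in Ct, 5.76 in DN and 7.47 in TS. The pools stood on opposite sides of Ct, DN at -0.87 and TS at 0.84, and the DN value lay next to the brightness limit.

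Set directly against each other, the members past the limit all lay lower in DN than in TS. None of 30 members was at least 1.5-fold higher in DN than in TS, against 3.2% of all genes, and 10 were lower, against 5.93%. With equal values left out, 10 of 27 members were lower, against 8.05% of genes, and 0 higher, against 4.35%. The member median was -0.45 and that of all genes 0.00, or -0.33 and 0.12 with centred arrays. Pfkfb1 (-2.83), Fbp2 (-1.71), Slc2a4 (-1.61), Phkg1 (-1.35) and Hk2 (-1.01) were past 2-fold in this direction, 5 of 30 against a background of 1.74%, and none was 2-fold higher, against 1.2%. Hk2 was short of 2-fold with arrays centred (-0.88) or detrended (-0.98), and with 32 added on the linear scale (-0.99). Pfkfb3, Eno3, Tpi1, Gpd1 and Pgam2 completed the 10, and Pgam2 (-0.62) dropped under the limit with centred arrays. Of the 27 members without equal values, DN was the lowest of the pools for 20 (74.1%), Ct for 6 and TS for 1. Over the 4776 compared genes without equal values, DN was lowest for 37.1%.

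**Figure D3:**
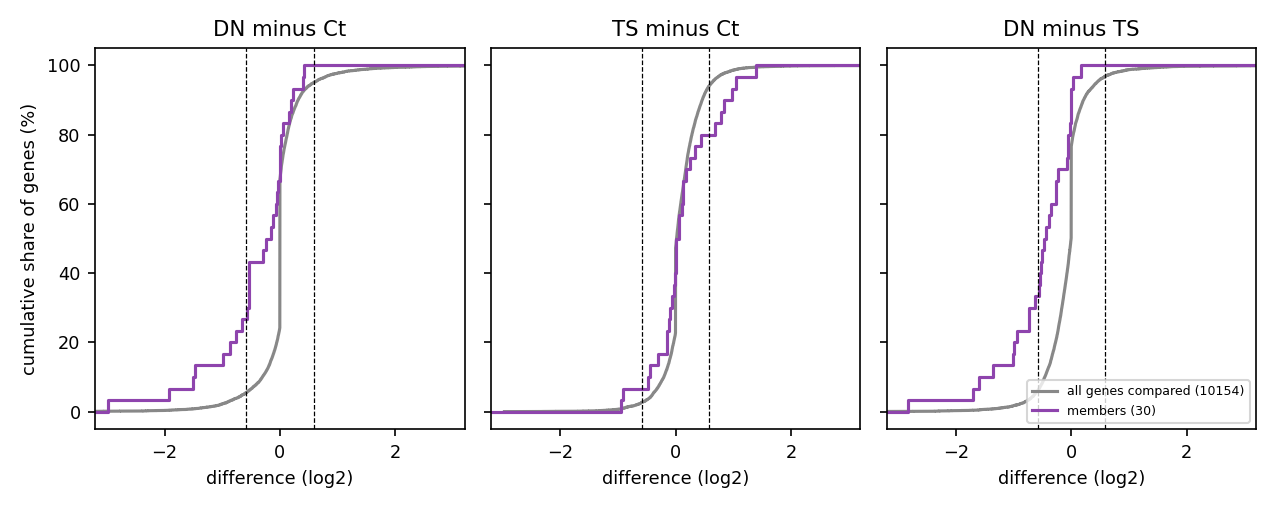
Cumulative share (%) of the 30 members (purple) and of the 10154 genes compared (grey) by difference (log2) in 3 panels, both treated pools against Ct and then DN against TS, with dashed lines at 1.5-fold and genes beyond the axis counted but not drawn. The member curve lies left of the grey one at the lower line for DN minus Ct (8 members) and DN minus TS (10 members), and in TS minus Ct 6 members lie right of the upper line.

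Other forms of the enzymes and genes that handle glycogen were taken from a list of pathway genes outside the 30. Of 29 other isoforms 24 had a probe set and 20 were bright enough to compare. In DN 1 was at least 1.5-fold higher and 2 were lower, against 4.93% and 5.53% of all genes. In TS 2 were higher and 1 was lower, against 5.89% and 2.68%, or 2 lower with centred arrays, against 3.94%. Pfkfb4, a further fructose 2,6-bisphosphate enzyme, read 7.54 in Ct, 8.35 in DN and 7.07 in TS, and its difference of 0.81 in DN was opposite in direction to that of Pfkfb1. Ldhd, the mitochondrial D-lactate dehydrogenase, read 8.54, 6.81 and 7.59 and was low in both pools, at -1.73 and -0.95. Slc2a12, a glucose transporter, stood at -0.95 in DN and -0.23 in TS. Aldoc, an aldolase best known from brain, was equal in Ct and DN at 6.53 and 0.84 higher in TS. The other phosphofructokinase genes Pfkl and Pfkp stood at -0.41 and -0.15 in DN and at 0.22 and 0.34 in TS.

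Among 11 measured genes of glycogen handling, 1 was at least 1.5-fold higher and 1 lower in DN, against 4.93% and 5.53% of all genes. None passed the limit in TS as deposited, where 5.89% of all genes were higher and 2.68% lower. With arrays centred, detrended or quantile-normalized, 1 was lower in TS. Stbd1, which binds glycogen and anchors it to membranes, read 8.29 in Ct, 10.45 in DN and 8.65 in TS. DN alone was high, by 2.16. Ppp1r3a, the muscle subunit that brings protein phosphatase 1 to glycogen, read 11.23, 10.32 and 10.88 and stood at -0.91 in DN and -0.35 in TS. The glycogen synthase kinases Gsk3a and Gsk3b were equal in Ct and DN and stood at 0.23 and -0.20 in TS.

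**Figure D4:**
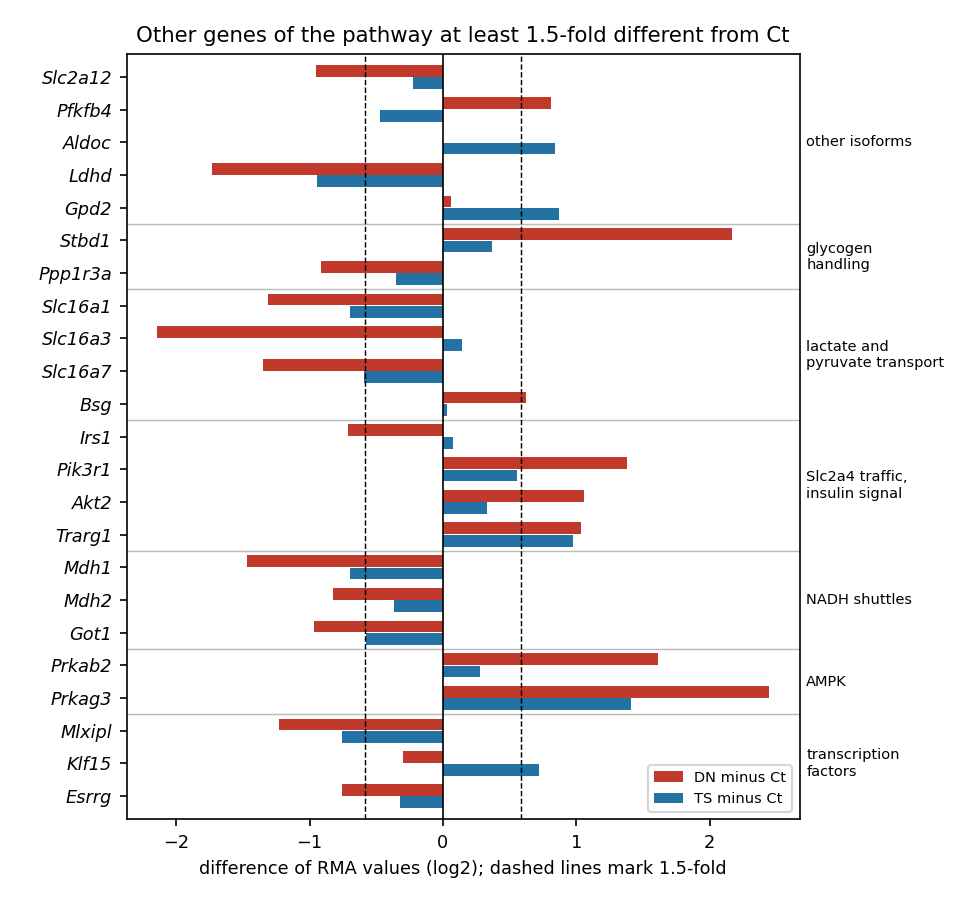
Differences of RMA values (log2) from Ct for the 23 genes of the pathway outside the 30 that were at least 1.5-fold different in DN (red) or TS (blue), grouped by role, with dashed lines at 1.5-fold and 1 pool per group. Prkag3 (2.44) and Stbd1 (2.16) have the longest bars to the right and Slc16a3 (-2.14) the longest to the left, all in DN.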

How the data were processed

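The authors made the deposited log2 values with Affymetrix Expression Console, by RMA in a core-exon analysis, per the labels. No source names the base of the logarithm; base 2 was taken from the range, 1.77 to 13.99. Tool version, annotation and build: not given in the sources used here. The series text speaks of 2 arrays, and 3 were used.

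Of 29170 probe sets, 15310 had 1 symbol in the platform annotation, 323 several and 13537 none; the last 2 kinds were left out. The symbols of all 30 members matched the GRCr8 gene table by gene identifier. The brightest probe set stood for a gene, and 10154 of 14506 genes were compared, those whose mean reached the 30th percentile. Differences were counted at 1.5-fold, without p-values, since each group had 1 array. Equal means within 1e-05. The 30 members, the lists and the rule for named genes (all members, and other pathway genes past 1.5-fold against Ct) were chosen with earlier results of these data known; Pfkl, Pfkp, Gsk3a, Gsk3b and Hif1a were named after their values were seen. Alternatives were centring, quantile normalization, loess (span 0.3), an offset of 32 on the linear scale, filters, probe set rules, limits of 2-fold and 0.32 (log2), means and leaving out equal values. The procedure was tested on simulated data, made from the Ct values with assumed noise and changes above the limit put into 200 genes. That checks the calculation only, as the noise between pools is not known. Protein sequences were not used here. Promoters came from RefSeq (GRCr8). Python 3.11.15, numpy 2.4.6, pandas 2.3.3, statsmodels 0.14.6 and matplotlib 3.10.9 were used.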

Additional observations from a re-analysis of the deposited data

How the results depend on the processing

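With 1 array per group, precision is limited by the number of arrays, and no paired analysis was possible because each group has 1 pool and the labels carry no replicate numbers. For DN minus Ct the member median of -0.20 became -0.53 with only genes of 1 probe set, -0.30 without equal values and -0.45 as a mean. The count of 8 lower members became 4 at a 2-fold limit and 13 at a limit of 0.32 (log2), against 9.57% of all genes, where 2 were higher in place of 0, against 9.71%. For TS minus Ct the median of 0.03 turned to -0.10 with centred arrays. With the values as deposited, 2 members were higher and 0 lower at 2-fold. At 0.32 there were 8 higher, against 17.4% of all genes, and 4 lower, against 6.62%. For DN minus TS the median of -0.45 became -0.33 with centred arrays and -0.57 as a mean, and the count of 10 lower became 5 at 2-fold and 18 at 0.32, against 16.8% of all genes. These changes follow from the limit, the scaling or the genes kept. The move to -0.53 left out 5 members, Gapdh, Pgam1, Eno1, Pkm and Ldha. Their DN minus Ct differences of 0, -0.16, 0.15, -0.05 and 0.42 all lay above the median of -0.20, so leaving them out lowers it. Over all genes compared, centring turned 598 higher and 272 lower in TS (68.7% higher) to 357 and 400 (47.2%), and 325 higher and 602 lower in DN against TS (35.1%) to 470 and 382 (55.2%). No member past 1.5-fold changed sign under loess, quantile normalization or the mean of probe sets, and the last can alter only the 5 members with several probe sets. Centring shifts a comparison by at most 0.13, and adding 32 keeps the sign, so neither could change the sign of such a member. Members that crossed the limit under a planned scaling were Ldha, Gbe1 and Pgam2, all with centring. Of 450 member values recomputed, 376 moved by less than 0.1 and 74 by more. Centring alone moves every TS minus Ct and DN minus TS value by 0.13, so this tally does not measure how stable the members are. Pfkfb1 stood at -2.54 in DN minus Ct with 32 added.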

Other observations

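Genes that regulate or feed the pathway were counted from the same list. Over all genes compared, 4.93% were at least 1.5-fold higher and 5.53% lower in DN, and 5.89% higher and 2.68% lower in TS. Of 7 subunit genes of AMPK, the kinase that senses low cellular energy, 2 were at least 1.5-fold higher in DN and 1 in TS, and none was lower. Prkag3, the gamma subunit of fast glycolytic muscle, read 7.55 in Ct, 9.99 in DN and 8.96 in TS, so both treated pools were high, by 2.44 and 1.41. Prkab2, a beta subunit common in muscle, read 8.03, 9.64 and 8.30, with DN alone high by 1.61. Of 9 measured genes of insulin signalling and GLUT4 trafficking, 3 were at least 1.5-fold higher and 1 lower in DN, and 1 was higher in TS. Pik3r1, a regulatory subunit of PI3-kinase, was 1.38 above Ct in DN and 0.56 above it in TS, Akt2, the insulin-responsive Akt of muscle, 1.06 and 0.33, and Trarg1, a regulator of GLUT4 trafficking, 1.04 and 0.98. Irs1, the insulin receptor substrate, stood at -0.72 in DN and 0.07 in TS.

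All 5 measured genes of the malate-aspartate shuttle, which carries electrons of glycolytic NADH into mitochondria, lay under Ct in both pools. Over all genes 24.3% lay under Ct in DN and 22.7% in TS, with equal values counted in the total. Without equal values these were 2467 of 5799 and 2308 of 7648 genes. At least 1.5-fold lower were 3 of the 5 in DN and 1 in TS. With centred arrays 3 were lower in TS, against 3.94% of all genes. Mdh1, the cytosolic malate dehydrogenase, read 12.97 in Ct, 11.50 in DN and 12.27 in TS. Got1 stood at -0.97 and -0.57 and Mdh2 at -0.83 and -0.37 in DN and TS. Gpd1 and Gpd2 of the glycerol phosphate shuttle, given in the report, were near Ct in DN and high in TS. Of 7 measured transcription factors linked to glycolytic or Slc2a4 genes, 2 were at least 1.5-fold lower in DN, and 1 was higher and 1 lower in TS. Mlxipl, the carbohydrate-responsive factor ChREBP, stood at -1.23 and -0.76, the nuclear receptor Esrrg at -0.76 and -0.32, and Klf15 at -0.30 and 0.72. Hif1a stood at -0.54 and -0.30, short of the limit.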
